A study of Mus musculus with 31 samples.

Results

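The genes described are 10 that make, elongate, desaturate or store fatty acids, or control those steps: Fasn, Acaca, Elovl6, Scd1, Scd2, Fads1, Fads2, Srebf1, Mid1ip1 and Lpin1. They were taken by name from the 39017 gene identifiers of the count files, all 10 were found, and all 10 passed the filter on low counts among 14024 genes tested. RNA was sequenced from the whole gastrocnemius, a calf muscle, of mice aged 30 weeks, in a design that crossed sex, diet and loss of MuRF1, a ubiquitin ligase of muscle encoded by Trim63. From 8 weeks of age some animals ate a high fat diet, 45% fat with lard as its source, while the others stayed on standard vivarium chow. The 30 libraries comprised, among females, 3 MuRF1 -/- and 4 wild type animals on high fat and 4 MuRF1 -/- and 4 wild type animals on chow, and the same numbers among males. MuRF1 -/- is called knockout in what follows. The labels name no Cre or promoter, and it is unknown here which strain, cage or batch a library came from.

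Fatty acid synthesis starts from cytosolic acetyl-CoA. Acetyl-CoA carboxylase, encoded by Acaca, makes malonyl-CoA, and fatty acid synthase, encoded by Fasn, builds palmitate from it. Elovl6 lengthens palmitate to stearate, the stearoyl-CoA desaturases Scd1 and Scd2 turn saturated into monounsaturated fatty acids, and Fads1 and Fads2 desaturate polyunsaturated fatty acids taken from food. Srebf1 encodes a transcription factor that insulin activates in liver and fat and that drives most of these genes, the product of Mid1ip1 binds acetyl-CoA carboxylase and raises its activity, and Lpin1 encodes a phosphatidate phosphatase on the way to triglycerides. Muscle fibres mainly burn fatty acids and make few, whereas fat cells between the fibres, Schwann cells and other cells in a piece of muscle also express these genes.

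RefSeq promoters on GRCm38.p6, each running from 250 bases before to 50 bases after a start site, were at hand for 7 of the 10 genes, 9 promoters in all. Those of Fasn and Elovl6, enzymes whose levels were correlated within groups, and of Mid1ip1, which moved apart from them, are shown 5′ to 3′ on the strand of the gene, with motif matches in capitals. They lie at chr11:120824498-120824797 on the minus strand, chr3:129532136-129532435 on the plus strand and chrX:10717115-10717414 on the plus strand.
Fasn: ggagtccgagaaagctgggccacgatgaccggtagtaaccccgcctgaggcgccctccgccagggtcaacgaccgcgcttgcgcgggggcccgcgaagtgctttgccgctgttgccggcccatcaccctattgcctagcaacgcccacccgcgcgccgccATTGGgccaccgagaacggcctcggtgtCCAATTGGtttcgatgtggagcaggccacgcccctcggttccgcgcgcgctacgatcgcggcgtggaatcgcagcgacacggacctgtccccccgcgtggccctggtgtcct
Elovl6: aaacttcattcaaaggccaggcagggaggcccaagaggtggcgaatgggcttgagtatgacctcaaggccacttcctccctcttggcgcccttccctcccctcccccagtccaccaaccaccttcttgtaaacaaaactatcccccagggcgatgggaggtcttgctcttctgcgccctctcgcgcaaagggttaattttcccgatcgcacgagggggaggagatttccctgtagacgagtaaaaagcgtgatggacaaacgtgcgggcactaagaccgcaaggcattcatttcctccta
Mid1ip1: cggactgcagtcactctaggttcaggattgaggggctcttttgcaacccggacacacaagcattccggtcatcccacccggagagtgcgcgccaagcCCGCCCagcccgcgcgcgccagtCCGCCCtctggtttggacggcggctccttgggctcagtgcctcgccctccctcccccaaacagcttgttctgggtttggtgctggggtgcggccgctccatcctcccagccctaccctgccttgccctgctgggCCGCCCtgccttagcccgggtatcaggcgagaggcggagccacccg
The motifs searched, on both strands, were a sterol response element (TCACNCCAC), an E-box (CACGTG), the NF-Y box (CCAAT) and the GC box (GGGCGG). Fasn held 3 NF-Y boxes, which begin 90, 62 and 59 bases before the start, the last 2 of them overlapping. Mid1ip1 held 3 GC boxes, which begin 153 and 130 bases before and 5 bases after the start, and Elovl6 held no match. Over the 7 genes, 2 had an NF-Y box, 3 had a GC box, 0 had a sterol response element and 0 had the E-box. Among all 32851 promoters of the same length, 37.4% held an NF-Y box, 35.7% a GC box, 1.24% the sterol response element and 7.15% the E-box. A match describes these letters only, and the absence of one says nothing about the factor.

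Total counts ran from 9342028 to 14919379 per library, and 3 counts correspond to 0.201 to 0.321 CPM, a count scaled to the library total. Trim63 ran from 0.469 to 6.24 CPM in the 14 knockout libraries and from 183 to 254 CPM in 13 wild type libraries, but lay between 109 and 130 CPM in 3 wild type libraries, female high fat 4, female chow 1 and male chow 3. Libraries were grouped by the animal number of their file, which for 4 of 30 is not the group of their own title. The values of all 4 go against their titles. Male knockout high fat 3, titled as a female wild type on chow, had 1.80 CPM of Trim63 and 34.1 CPM of the Y-linked gene Ddx3y. Female knockout chow 4, titled as a wild type on high fat, had 0.870 CPM of Trim63, whereas 2 female wild types titled as knockouts, number 4 on high fat and number 4 on chow, had 119 and 221 CPM. The keratinocyte gene Krt10 was over 10 times its median in 3 female chow libraries, knockout 1, knockout 3 and wild type 3. Muscle fibre markers were abundant in every group. Calls that were lost without these libraries, or with libraries grouped by their own titles, are named where they stand. The libraries carry different animal numbers, but the labels name no litter or day, and p-values measure the spread between these libraries.

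The 10 genes differed widely in level and in how much they varied. Per kilobase of exon, Scd1 averaged 46.3 CPM over the 30 libraries, Lpin1 28.7, Srebf1 10.7, Mid1ip1 10.1, Scd2 7.62, Fasn 5.62, Fads1 2.04, Acaca 1.68, Fads2 0.522 and Elovl6 0.483 CPM per kilobase. Fads2 and Elovl6 were close to the lower limit, with as few as 2 and 4 counts in a library. The highest library exceeded the lowest 40.7-fold for Elovl6, 35.8-fold for Fasn and 31.3-fold for Scd1, but only 2.22-fold for Lpin1 and 2.36-fold for Srebf1. Scd1 and Scd2 are close relatives. Of the 75-base words of Scd1 exons, 1.62% also occur in Scd2, 2.27% in Scd3 and 0.859% in Scd4, so few reads could be assigned to the wrong copy. Srebf1 overlaps Rai1, Mid1ip1 overlaps Gm10489 and Gm14493, and Acaca and Elovl6 each overlap 1 predicted gene on the opposite strand. On their own strand Acaca and Elovl6 each overlap 1 predicted gene, Srebf1 2 genes, Fads1 Mir6993 and Scd2 Mir5114. How strand was treated in counting is not stated in the labels, so reads of opposite-strand overlaps cannot be told apart. Overlaps on the same strand stay ambiguous under any strand setting.

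**Figure D1:**
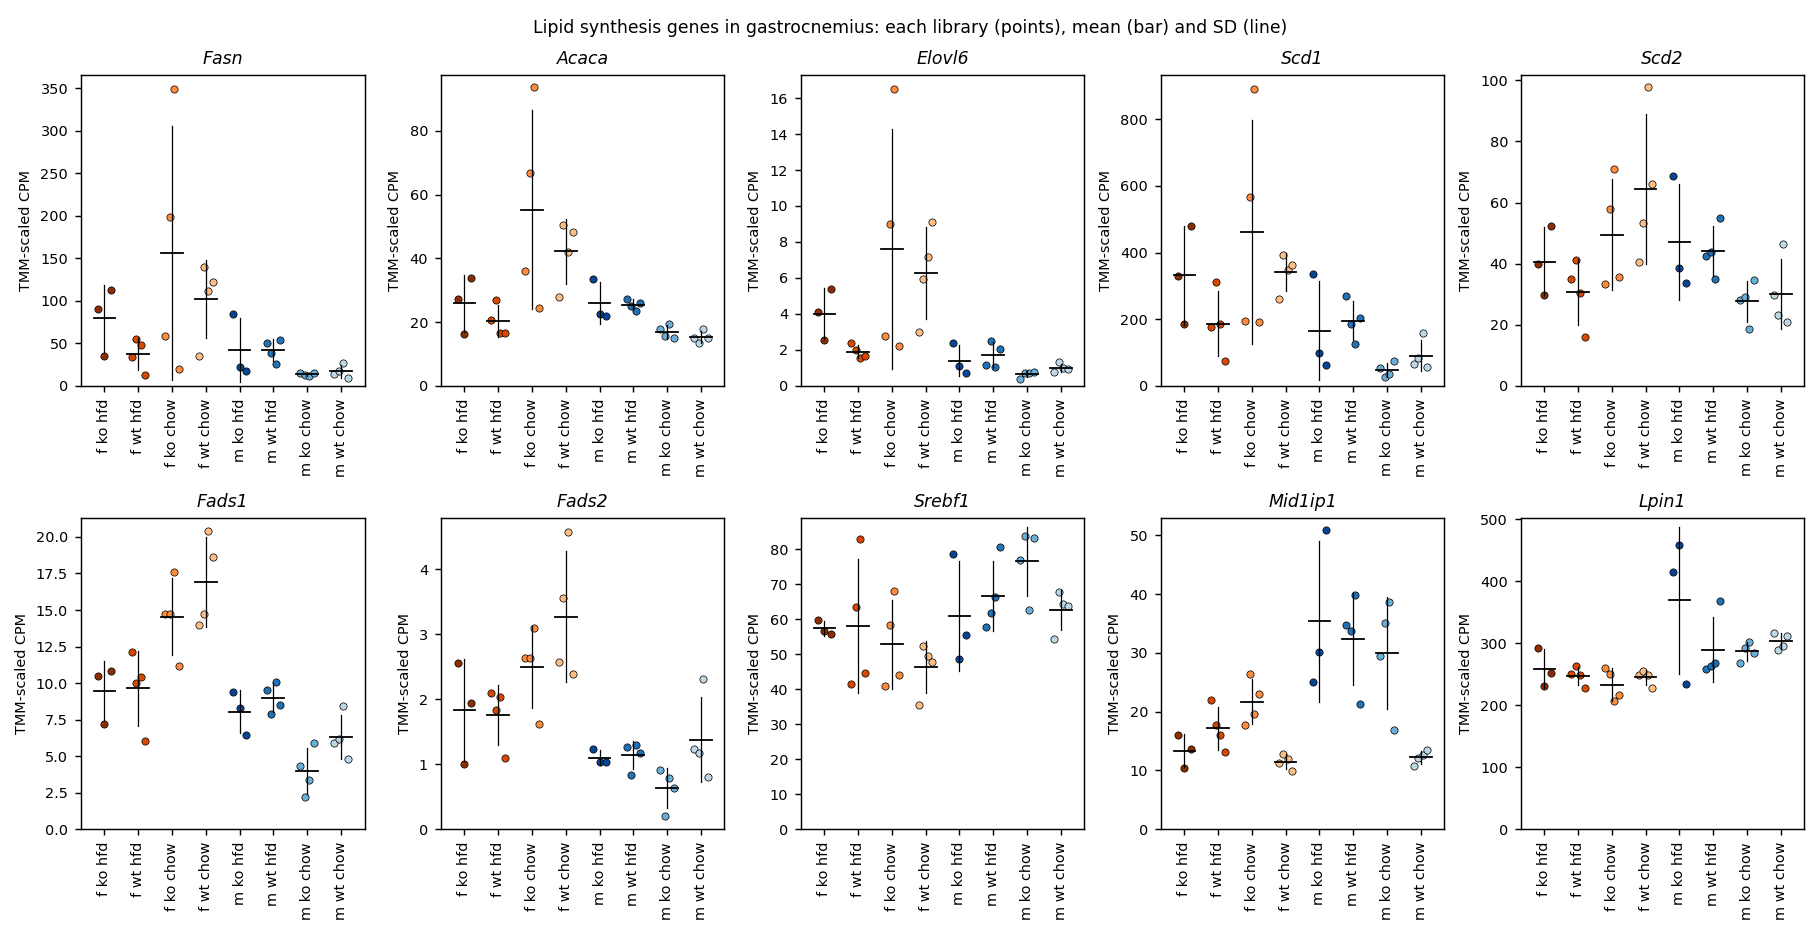
Levels of the 10 genes, in TMM-scaled CPM, on the y axis for the 8 groups on the x axis (f female, m male, ko knockout, wt wild type, hfd high fat). Points are libraries, bars are group means and lines are the SD; Fasn, Elovl6 and Scd1 reach their highest values in female chow libraries, and Mid1ip1 is low in wild type chow of both sexes.

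Diet effects were compared between females and males. On chow, Fasn, Acaca, Elovl6, Scd1, Fads1 and Fads2 were higher in females than in males in both genotypes, and on the high fat diet none of these sex differences passed the test in the fit of all 30 libraries. The diet difference in females minus that in males, averaged over genotypes, was negative for 8 of the 10 genes with edgeR's quasi-likelihood test at an adjusted p under 0.05. They were Fasn, Acaca, Elovl6, Scd1, Scd2, Fads1, Fads2 and Mid1ip1, while Srebf1 (0.34 ± 0.19, adjusted p = 0.14) and Lpin1 (-0.07 ± 0.14, adjusted p = 0.717) did not pass. With the libraries grouped by their own titles the same test kept 7 of the 8, and Mid1ip1 was at -0.84 with an adjusted p of 0.0899. The median difference over the 10 genes was -1.39 on the log2 scale, against -0.03 over all genes tested. Over all genes, 23.6% were called lower in that comparison, so a called difference was itself common.

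Fasn showed the largest difference of diet effects between the sexes. Fasn stood at 90.1, 35.6 and 113 CPM in female knockout high fat, and at 58.9, 199, 349 and 19.8 CPM in female knockout chow. It stood at 34.2, 54.9, 48.2 and 13.0 CPM in female wild type high fat, and at 35.0, 140, 112 and 122 CPM in female wild type chow. In females the high fat and chow libraries overlapped in both genotypes, and female knockout chow spread 150 CPM (SD, n = 4) around a mean of 157 CPM. In males the order of the diets was turned round. Fasn had 85.1, 22.5 and 17.7 CPM in male knockout high fat, against 15.5, 12.8, 12.2 and 15.6 CPM in male knockout chow. Male wild type high fat had 50.9, 39.1, 25.8 and 54.5 CPM, against 14.5, 17.3, 27.5 and 9.76 CPM in male wild type chow. Male knockout libraries did not overlap between diets, whereas male wild type libraries overlapped by 1 library. The diet difference in females was lower than that in males by -2.64 ± 0.70 (log2 ± SE, adjusted p = 0.00435). None of the 4 single diet comparisons of Fasn passed on its own, with log2 fold changes of -0.98 ± 0.71 in female knockouts, -1.44 ± 0.66 in female wild types, 1.57 ± 0.74 in male knockouts and 1.30 ± 0.69 in male wild types.

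Acaca, the enzyme that feeds Fasn, varied less between animals. It stood at 27.4, 16.4 and 33.9 CPM in female knockout high fat, against 36.0, 66.9, 93.6 and 24.5 CPM in female knockout chow. It stood at 20.8, 27.1, 16.7 and 16.5 CPM in female wild type high fat, against 27.9, 50.6, 42.1 and 48.4 CPM in female wild type chow. The female wild type libraries did not overlap between diets, the female knockout libraries did. Acaca was lower on the high fat diet in both, by -1.09 ± 0.32 in female knockouts (adjusted p = 0.0213) and by -1.05 ± 0.29 in female wild types (adjusted p = 0.0128). Male libraries did not overlap between diets in either genotype, with 21.9 to 33.6 CPM in male knockout high fat against 14.9 to 19.4 CPM in male knockout chow, and 23.5 to 27.3 CPM in male wild type high fat against 13.4 to 18.0 CPM in male wild type chow. Neither male comparison passed (0.62 ± 0.32, adjusted p = 0.226 in knockouts, and 0.73 ± 0.30, adjusted p = 0.362 in wild types), but the difference between the sexes did, at -1.75 ± 0.31 (adjusted p = 1.25e-04). In female knockouts the Acaca call was lost without chow library 2 or 3 or high fat library 2. Its adjusted p was 0.15, with a log2 fold change of -0.81, without the 3 libraries high in Krt10. These include female knockout chow 1 and 3, and without them the calls over all genes fell from 2688 to 106 there. In a fit of the 2 groups alone its adjusted p was 0.121. In female wild types the call was lost without female wild type high fat 3, with a highest adjusted p of 0.0515, and with offsets for GC content (-0.89, adjusted p = 0.053).

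Elovl6, which lengthens the product of Fasn, followed the same order at a much lower level. It stood at 2.38, 2.02, 1.57 and 1.69 CPM in female wild type high fat, against 2.99, 5.92, 7.19 and 9.09 CPM in female wild type chow, without overlap. In female knockouts it stood at 4.09, 2.58 and 5.38 CPM on the high fat diet, against 2.79, 9.01, 16.5 and 2.23 CPM on chow, with overlap. The diet difference in female wild types was -1.68 ± 0.48 (adjusted p = 0.0127) and held when each library was left out in turn. Means in males were 1.42 ± 0.877 CPM in knockout high fat (SD, n = 3), 1.71 ± 0.709 CPM in wild type high fat (SD, n = 4), 0.651 ± 0.169 CPM in knockout chow (SD, n = 4) and 1.01 ± 0.223 CPM in wild type chow (SD, n = 4). The female diet difference was lower than the male one by -2.20 ± 0.58 (adjusted p = 0.00343).

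Scd1, the most abundant of the 10 genes per kilobase, ran in parallel with Fasn. It stood at 329, 185 and 481 CPM in female knockout high fat, against 196, 567, 890 and 193 CPM in female knockout chow. In female wild types it stood at 176, 313, 186 and 73.4 CPM on high fat, against 262, 393, 349 and 364 CPM on chow. Both female comparisons overlapped and neither passed (-0.48 ± 0.59, adjusted p = 0.588, and -0.87 ± 0.54, adjusted p = 0.247). In males Scd1 stood at 336, 99.3 and 61.5 CPM in knockout high fat, against 55.0, 28.4, 35.5 and 75.2 CPM in knockout chow. Male wild type high fat had 269, 186, 125 and 204 CPM, against 65.0, 83.5, 158 and 57.0 CPM in male wild type chow. The male differences, 1.77 ± 0.59 in knockouts (adjusted p = 0.0756) and 1.11 ± 0.55 in wild types (adjusted p = 0.487), did not pass either. The sexes differed in their diet effect by -2.11 ± 0.57 (adjusted p = 0.00491).

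Scd2, a desaturase expressed widely outside the liver, had smaller contrasts. Female wild type high fat had 35.0, 41.3, 30.5 and 16.1 CPM, against 40.7, 53.2, 97.8 and 66.0 CPM in female wild type chow, a difference of -1.06 ± 0.33 (adjusted p = 0.0227). The groups overlapped by 1 library, and the call was lost without chow library 3 or high fat library 3 or 4 of this stratum. It was also lost without the 3 libraries high in Krt10, at -0.78 with an adjusted p of 0.099, and in a fit of the 2 groups alone, at -1.05 with an adjusted p of 0.0504. Means elsewhere were 40.7 ± 11.3 CPM in female knockout high fat (SD, n = 3), 49.5 ± 18.2 CPM in female knockout chow (SD, n = 4), 47.1 ± 18.9 CPM in male knockout high fat (SD, n = 3), 44.1 ± 8.25 CPM in male wild type high fat (SD, n = 4), 27.7 ± 6.62 CPM in male knockout chow (SD, n = 4) and 30.1 ± 11.6 CPM in male wild type chow (SD, n = 4). The diet effect differed between the sexes by -1.33 ± 0.34 (adjusted p = 0.00351).

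Fads1, which makes arachidonate from its precursor, gave the smallest adjusted p of the 10 genes for this comparison, at 1.44e-05, with a difference of -1.46 ± 0.23. Female knockout high fat had 10.5, 7.18 and 10.8 CPM, against 14.7, 14.7, 17.6 and 11.2 CPM in female knockout chow. In female wild types it stood at 12.1, 10.0, 10.4 and 6.06 CPM on high fat, against 14.0, 14.7, 20.4 and 18.6 CPM on chow. Neither pair overlapped. The female wild type difference passed (-0.80 ± 0.20, adjusted p = 0.00634) and the female knockout difference did not (-0.61 ± 0.23, adjusted p = 0.0533). The latter passed with DESeq2 (adjusted p = 0.0395), with GC offsets (0.0354), in a fit of the 2 groups alone (0.04) and without the libraries of intermediate Trim63 (0.031). It also passed with the replicate block, in the 26 libraries with matching titles and by own titles. With RLE scaling, without a filter, without high Krt10 libraries and with the adipocyte covariate it did not. In males the high fat libraries were the higher ones. Male knockout high fat had 9.39, 8.27 and 6.45 CPM, against 4.36, 2.24, 3.38 and 5.93 CPM in male knockout chow, a difference of 0.99 ± 0.25 (adjusted p = 0.0223) without overlap. That call was lost when any of 5 of the 7 libraries was left out, knockout chow 1, 2 or 3 or knockout high fat 1 or 2, with a highest adjusted p of 0.126. Male wild type high fat had 9.55, 7.88, 10.1 and 8.50 CPM, against 5.93, 6.20, 8.40 and 4.80 CPM in male wild type chow (0.51 ± 0.22, adjusted p = 0.375), with overlap.

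Fads2, the desaturase that acts before Fads1, was the lowest of the desaturases. Female wild type high fat had 2.10, 1.83, 2.03 and 1.09 CPM, against 2.57, 3.55, 4.57 and 2.39 CPM in female wild type chow, without overlap (-0.88 ± 0.29, adjusted p = 0.0275). That call was lost without chow library 2 or 3 or high fat library 3 or 4 of this stratum. It was also lost without the libraries high in Krt10 (-0.67, adjusted p = 0.143) and without those of intermediate Trim63 (-0.83, adjusted p = 0.0509). The other means were 1.84 ± 0.777 CPM in female knockout high fat (SD, n = 3), 2.50 ± 0.624 CPM in female knockout chow (SD, n = 4), 1.10 ± 0.120 CPM in male knockout high fat (SD, n = 3), 1.15 ± 0.212 CPM in male wild type high fat (SD, n = 4), 0.632 ± 0.308 CPM in male knockout chow (SD, n = 4) and 1.38 ± 0.650 CPM in male wild type chow (SD, n = 4). The difference of diet effects between the sexes, -0.92 ± 0.35 (adjusted p = 0.0331), was the weakest of the 8. It was lost when any of 9 of the 30 libraries was left out. In females these were knockout high fat 2, wild type high fat 4, knockout chow 3 and wild type chow 3. In males they were knockout high fat 1, wild type high fat 1 and 3, knockout chow 2 and wild type chow 4. Without the libraries high in Krt10 it was -0.69, with an adjusted p of 0.144.

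Counted by stratum, the high fat diet lowered 5 of the 10 genes in female wild types, Acaca, Elovl6, Scd2, Fads1 and Fads2, against a background of 12.5% of all genes called lower. Own titles go against Trim63 in 4 of the 30 grouped libraries and in the library left out, which enters that grouping. Grouped by their own titles, the libraries gave 0 of these 5 calls, with 5 genes called in all. In the 26 libraries whose titles name the same group, Acaca and Elovl6 kept their calls, and Fads1 (-0.59, adjusted p = 0.0567), Fads2 (-0.84, adjusted p = 0.0681) and Scd2 (-0.84, adjusted p = 0.109) did not. In female knockouts 1 gene fell, Acaca, against 8.79% of all genes called lower, and Fads1 narrowly missed the threshold (adjusted p = 0.0533). In male knockouts 1 gene rose, Fads1, against 4.01% called higher. In male wild types 1 gene rose, Mid1ip1, against 0.164% called higher. The median log2 fold change of the 10 genes was -0.54 in female knockouts, -0.88 in female wild types, 0.77 in male knockouts and 0.64 in male wild types, beside 0.00, -0.01, 0.05 and 0.00 over all genes in the same order. Averaged over the 4 strata, edgeR called 0 of the 10 genes for diet, against 0.827% of all genes in either direction. Mid1ip1 alone had an unadjusted p under 0.05 there, and DESeq2 called it, with a log2 fold change of 0.38 and an adjusted p of 0.0477. Each female diet comparison shares its chow libraries with a sex comparison, so the values below are the same libraries seen from the other side.

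**Figure D2:**
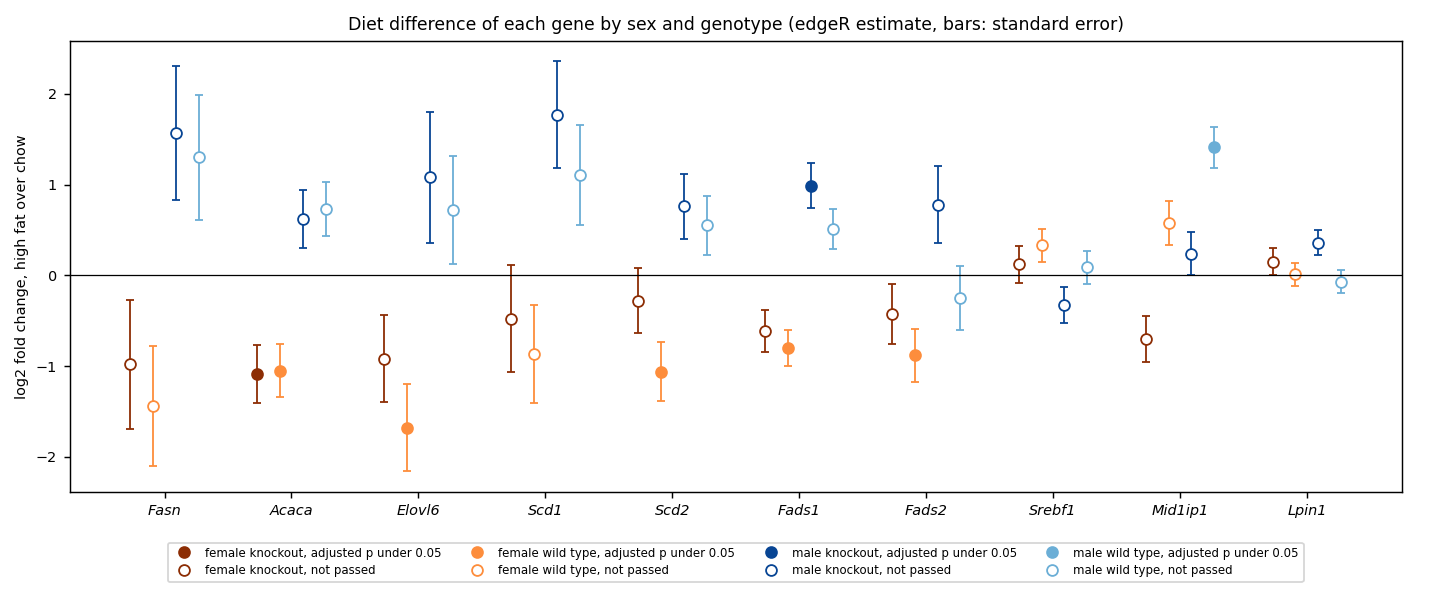
The y axis gives the log2 fold change of high fat over chow for the 10 genes along the x axis, separately for female knockout, female wild type, male knockout and male wild type mice. Points are edgeR estimates, bars are standard errors and filled points have an adjusted p under 0.05; for Fasn, Acaca, Elovl6, Scd1, Scd2 and Fads1 both female points lie below 0 and both male points above it.

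The sex difference depended on the diet in which it was read. Female knockout chow exceeded male knockout chow 11.4-fold for Elovl6 (log2 3.51 ± 0.57, adjusted p = 3.57e-05), 11.1-fold for Fasn (3.48 ± 0.73, adjusted p = 6.98e-04) and 9.49-fold for Scd1 (3.25 ± 0.59, adjusted p = 1.91e-04). It exceeded it 3.86-fold for Fads2, 3.61-fold for Fads1, 3.26-fold for Acaca and 1.79-fold for Scd2, and Srebf1 was lower, at 0.690 times the male level (adjusted p = 0.0202). These were 7 genes higher and 1 lower, against backgrounds of 23.5% and 19.1% of all genes. Libraries of the sexes did not overlap for Elovl6, Fasn, Scd1, Fads1, Fads2 and Acaca, and overlapped for Scd2 and Srebf1. Lpin1, which was not called, did not overlap either, with females lower. How many of all genes did not overlap was not counted. The Scd2 call (adjusted p = 0.0469) was lost without male knockout chow 1, 2 or 3 or female knockout chow 2 or 3, and the Srebf1 call was lost without male knockout chow 2. In a fit of the 2 groups alone Scd2 had an adjusted p of 0.0664, and in the 26 libraries with matching titles Srebf1 was at -0.46 with an adjusted p of 0.0649. Without the libraries high in Krt10, 2 of the 8 calls were lost, Scd2 (0.74, adjusted p = 0.137) and Srebf1 (-0.59, adjusted p = 0.0505).

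In wild types on chow the same 7 genes were higher in females, against 6.53% of all genes called higher. The differences were 6.10-fold for Elovl6 (2.61 ± 0.52, adjusted p = 0.00175), 5.91-fold for Fasn (2.56 ± 0.70, adjusted p = 0.0197), 3.77-fold for Scd1 (1.91 ± 0.56, adjusted p = 0.0283), 2.75-fold for Acaca, 2.67-fold for Fads1, 2.38-fold for Fads2 and 2.14-fold for Scd2. Scd2 overlapped between the sexes and the other 6 did not. Srebf1 and Lpin1, which were not called, did not overlap either, with females lower. Overlap was again not counted over all genes. Fads1, Fads2, Acaca and Elovl6 held when each library was left out in turn. Scd1 and Scd2 were lost without male wild type chow 1, 2 or 4 or female wild type chow 3 or 4, and Fasn without male wild type chow 2 or 4. Without the libraries high in Krt10, Scd1 (1.90, adjusted p = 0.0566), Scd2 (0.82, adjusted p = 0.144) and Fads2 (1.04, adjusted p = 0.056) were lost, which left 4 of the 7 calls. In a fit of the 2 groups alone Scd2 had an adjusted p of 0.0891. With the libraries grouped by their own titles 2 of the 7 calls were kept, Fads1 (1.11, adjusted p = 0.0188) and Acaca (1.19, adjusted p = 0.0254). Elovl6 was then at 2.01 (adjusted p = 0.0558), Fads2 at 1.06 (adjusted p = 0.115), Fasn at 2.11 (adjusted p = 0.119), Scd2 at 0.88 (adjusted p = 0.182) and Scd1 at 1.53 (adjusted p = 0.184).

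On the high fat diet none of these 7 genes passed a test of sex in the fit of all 30 libraries. In knockouts the log2 differences were 0.94 ± 0.76 for Fasn (adjusted p = 0.438), 1.00 ± 0.63 for Scd1 (adjusted p = 0.304), 1.51 ± 0.59 for Elovl6 (adjusted p = 0.0903) and 0.24 ± 0.25 for Fads1 (adjusted p = 0.547). Elovl6 did not overlap between the sexes there, and without the chow libraries high in Krt10, which are in neither group but enter the shared spread, it passed (1.52, adjusted p = 0.0337). In wild types they were -0.17 ± 0.66 for Fasn (adjusted p = 0.898), -0.06 ± 0.54 for Scd1 (adjusted p = 0.956), 0.20 ± 0.55 for Elovl6 (adjusted p = 0.851) and 0.11 ± 0.21 for Fads1 (adjusted p = 0.788). In wild types the standard errors of Fasn and Scd1 leave room for differences of about 1 log2 unit either way. The genes that passed were lower in females, Mid1ip1 in wild types, against 6.70% of all genes called lower, and Mid1ip1 and Lpin1 in knockouts, against 7.53%. Averaged over diets and genotypes, 6 of the 10 genes were higher in females, against 17.4% of all genes. These were Elovl6 (1.96 ± 0.28), Fasn (1.70 ± 0.35), Scd1 (1.53 ± 0.29), Fads2 (1.14 ± 0.17), Fads1 (0.90 ± 0.11) and Acaca (0.71 ± 0.16). Another 3 were lower in females, Mid1ip1 (-0.71 ± 0.12), Lpin1 (-0.34 ± 0.07) and Srebf1 (-0.31 ± 0.10), against 13.4%. All 9 average calls held when each of the 30 libraries was left out in turn, and 8 held with the libraries grouped by their own titles, where Mid1ip1 was at -0.39 (adjusted p = 0.151), but averages over strata that differ describe no single group.

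Mid1ip1, the partner of acetyl-CoA carboxylase, did not follow the enzyme it binds. On chow it was higher in knockouts of both sexes. Male knockout chow had 29.4, 35.0, 38.7 and 16.8 CPM, against 10.7, 12.1, 12.7 and 13.4 CPM in male wild type chow, without overlap. Female knockout chow had 17.7, 26.4, 19.6 and 23.0 CPM, against 11.3, 12.8, 12.0 and 9.86 CPM in female wild type chow, also without overlap. The male difference was 1.29 ± 0.23 (2.44-fold, adjusted p = 0.00213), the only one of the 10 genes called in that comparison, against 1.63% of all genes called higher. It held when each of the 8 libraries was left out in turn, between 1.15 and 1.50, but not with the libraries grouped by their own titles (1.32, adjusted p = 0.058). The female difference was 0.91 ± 0.23 (1.88-fold, adjusted p = 0.189), which did not pass over all genes with edgeR, while DESeq2 gave an adjusted p of 0.0362.

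On the high fat diet Mid1ip1 no longer separated the genotypes. Female knockout high fat had 16.0, 10.4 and 13.7 CPM, against 21.9, 17.7, 16.0 and 13.1 CPM in female wild type high fat (-0.37 ± 0.26, adjusted p = 0.756). Male knockout high fat had 25.0, 30.2 and 50.9 CPM, against 34.7, 33.7, 39.9 and 21.3 CPM in male wild type high fat (0.13 ± 0.24, adjusted p = 0.909). Both pairs overlapped. In male wild types the high fat diet raised Mid1ip1 by 1.41 ± 0.23 (2.65-fold, adjusted p = 0.00354), without overlap and without loss of the call when any of the 8 libraries was left out. Grouped by their own titles, the libraries gave 1.39 with an adjusted p of 0.225. The diet differences in the other strata were -0.70 ± 0.25 in female knockouts (adjusted p = 0.0541), 0.58 ± 0.24 in female wild types (adjusted p = 0.069) and 0.24 ± 0.24 in male knockouts (adjusted p = 0.526). The first 2 of these did not overlap between diets.

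Averaged over the sexes, the knockout difference of Mid1ip1 under high fat minus that under chow was -1.22 ± 0.24 (adjusted p = 0.0383), against 0.0570% of all genes called lower. Leaving out any of 24 of the 30 libraries ended this call, with the log2 value between -1.41 and -1.13 and the adjusted p up to 0.109. The 6 whose omission kept it were, in females, wild type high fat 4 and wild type chow 1, and in males number 4 of wild type high fat, of knockout chow and of wild type chow, with knockout high fat 3. It was also lost without the libraries of intermediate Trim63 (-1.28, adjusted p = 0.0548) and without those high in Krt10 (-1.33, adjusted p = 0.136), by own titles (adjusted p = 0.803), with offsets for GC content (-1.15, adjusted p = 0.0629) and without a filter on low counts (adjusted p = 0.108). DESeq2 gave -1.22 with an adjusted p of 7.82e-04. Over all 4 strata the knockout difference was 0.49 ± 0.12 (adjusted p = 0.0183), the only call of that kind among the 10 genes, against 1.55% of all genes called higher. With the libraries grouped by their own titles it was 0.03 with an adjusted p of 0.955, and in the 26 libraries whose titles name the same group it was 0.35 with an adjusted p of 0.0737. Females were below males on the high fat diet, at 0.378 times the male level in knockouts (adjusted p = 8.84e-04) and 0.533 times in wild types (adjusted p = 0.0092). By own titles neither passed, at a log2 difference of -0.90 in knockouts (adjusted p = 0.152) and -0.72 in wild types (adjusted p = 0.334). Mid1ip1 lies on chromosome X, between 10715013 and 10719690 on the plus strand of mm10.

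Srebf1, the transcription factor of the pathway, varied little and not in step with its targets across the groups. Means were 57.4 ± 2.07 CPM in female knockout high fat (SD, n = 3), 58.2 ± 19.1 CPM in female wild type high fat (SD, n = 4), 52.9 ± 12.8 CPM in female knockout chow (SD, n = 4) and 46.3 ± 7.45 CPM in female wild type chow (SD, n = 4). In males they were 60.9 ± 15.8 CPM in knockout high fat (SD, n = 3), 66.6 ± 9.97 CPM in wild type high fat (SD, n = 4), 76.6 ± 9.82 CPM in knockout chow (SD, n = 4) and 62.6 ± 5.69 CPM in wild type chow (SD, n = 4). The group with the lowest Fasn, male knockout chow, thus had the highest mean Srebf1. No diet or genotype comparison of Srebf1 passed. Over all 30 libraries Srebf1 and Fasn had a Pearson correlation of -0.09 in log2 CPM, while within groups, after the group means were taken off, it was 0.68. These correlations describe libraries that share their scaling and tissue makeup.

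Lpin1 varied little, and its highest values were in male high fat libraries of both genotypes. Male knockout high fat had 415, 459 and 234 CPM, against 268, 292, 303 and 285 CPM in male knockout chow (0.36 ± 0.14, adjusted p = 0.112). That difference passed in the 26 libraries with matching titles (0.61, adjusted p = 0.00728) and by own titles (0.55, adjusted p = 0.00707). Male wild type high fat had 259, 264, 268 and 369 CPM, against 317, 290, 295 and 312 CPM in male wild type chow (-0.07 ± 0.13, adjusted p = 0.917). Both pairs overlapped, and the female groups all had means between 234 and 259 CPM. On chow all male libraries lay above the female ones of their genotype. They had 268 to 303 against 207 to 261 CPM in knockouts and 290 to 317 against 228 to 255 CPM in wild types. Neither sex difference on chow passed in the fit of all 30 libraries (adjusted p = 0.0757 and 0.131), but the sex average did (-0.34 ± 0.07, adjusted p = 4.72e-04). Female knockout high fat had 293, 232 and 253 CPM, which is 0.702 times the level in male knockout high fat (adjusted p = 0.0282) with overlap. That call was lost without female knockout high fat 2 or 3 or male knockout high fat 1 or 2, with log2 values between -0.75 and -0.33. In a fit of the 2 groups alone its adjusted p was 0.192.

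Knockout differences of the other 9 genes did not pass in any comparison in the fit of all 30 libraries. The nearest were Fads2 and Fads1 in male chow. Fads2 had 0.912, 0.204, 0.781 and 0.633 CPM in male knockout chow, against 1.23, 1.17, 2.31 and 0.800 CPM in male wild type chow (-1.10 ± 0.38, adjusted p = 0.0771). Fads1 differed there by -0.65 ± 0.24 (adjusted p = 0.0929), and both overlapped. With the replicate number as a block Fads2 passed (-1.07, adjusted p = 0.0451), as it did with GC offsets added to the block (-1.03, adjusted p = 0.0418). Female chow gave 0 calls among the 10 genes, with 1 unadjusted p under 0.05 and 1 call by DESeq2, both of them Mid1ip1, against 0.0927% of all genes called in either direction. Male high fat gave 0 calls, with 1 unadjusted p under 0.05 and 0 calls by DESeq2, against 0.264%. In the 26 libraries with matching titles Lpin1 passed there (0.59, adjusted p = 0.0488). Female high fat gave 0 calls, with 0 unadjusted p under 0.05 and 0 calls by DESeq2, against 0.0713%, and there Elovl6 did not overlap, with 2.58 to 5.38 CPM in knockouts against 1.57 to 2.38 CPM in wild types (1.05 ± 0.53, adjusted p = 0.658). The test of whether the knockout difference varied with sex gave 0 calls, with 1 unadjusted p under 0.05 and 0 calls by DESeq2, against 0.0285%. Its estimates were as large as 1.20 ± 0.57 for Scd1 and 1.11 ± 0.58 for Elovl6, so the libraries at hand do not set narrow limits for these genes.

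Markers of some cells other than fibres moved with these genes. The summed level of 14 adipocyte markers, none of them at 0 in all libraries of a group, ran from 302 to 682 CPM in female knockout chow (median 440), from 214 to 439 in female wild type chow (median 348), from 115 to 217 in male knockout chow (median 170) and from 189 to 267 in male wild type chow (median 239). On the high fat diet the ranges were closer, 231 to 316 CPM in female knockouts, 193 to 315 in female wild types, 170 to 263 in male knockouts and 191 to 297 in male wild types. Of the 14 markers, 10 had a lower diet effect in females than in males and 1 a higher one, with a median of -1.37, against 23.6% and 21.6% of all genes. In knockouts on chow 12 were higher and 1 was lower in females, against 23.5% and 19.1% of all genes. In wild types on chow 6 were higher and 1 was lower, against 6.53% and 5.51%. In bulk tissue fewer cells of a type and less RNA per cell cannot be told apart.

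Fasn and the summed adipocyte markers were not in the same order in every library. Female wild type chow 2 and 4 had summed adipocyte marker levels of 214 and 271 CPM, inside the range of male wild type high fat. They had 140 and 122 CPM of Fasn, above all 15 male libraries. Female wild type chow 1 had 424 CPM of adipocyte markers and 35.0 CPM of Fasn. In female knockout chow the extremes were in the same order. Library 3 had 682 CPM of the markers and 349 CPM of Fasn, both the highest of the 30 libraries. Library 4 had the least of both in that group, 302 and 19.8 CPM. Between them, library 1 had 488 and 58.9 CPM and library 2 had 392 and 199 CPM. Abundant markers weigh most in such a sum, and the part of adipocytes in these Fasn levels was not tested. Within groups, the correlation with the mean log2 level of the adipocyte markers was 0.63 for Fads1, 0.61 for Scd1, 0.52 for Scd2, 0.49 for Fads2, 0.42 for Fasn, 0.26 for Acaca, 0.25 for Srebf1, 0.17 for Elovl6, 0.00 for Lpin1 and -0.16 for Mid1ip1. Over all 30 libraries the same values were 0.83 for Fads1, 0.80 for Scd1 and 0.70 for both Fasn and Elovl6. These are descriptions of 30 libraries that share tissue and scaling.

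**Figure D3:**
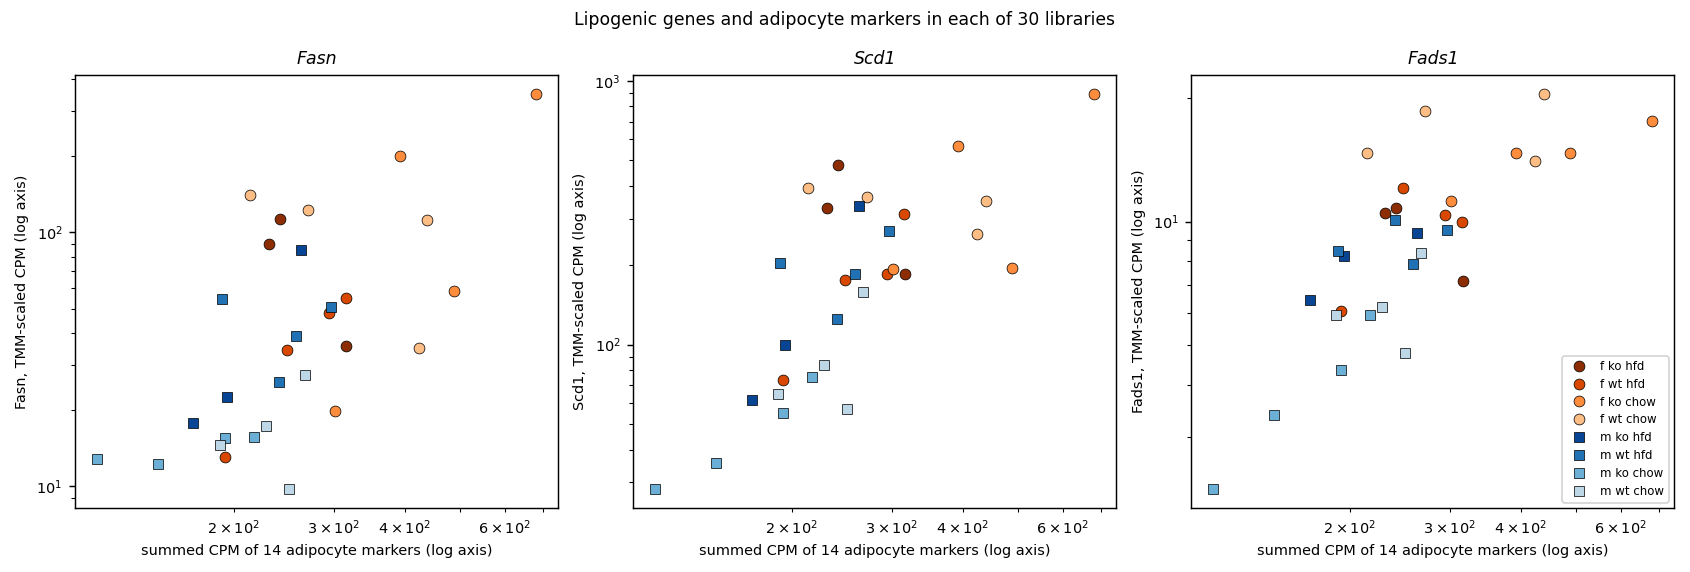
Level of Fasn, Scd1 and Fads1 in TMM-scaled CPM (y axes, log scale) against the summed CPM of 14 adipocyte markers (x axes, log scale) in each of 30 libraries. Circles are female and squares male libraries, coloured by group. Female wild type chow libraries with 214 and 271 CPM of the markers lie above every male library in Fasn, and that with 424 CPM lies among the male libraries. The female knockout chow library with 682 CPM, the most of the markers, has the highest Fasn.

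Some other markers moved in the same comparison. Schwann cell markers summed to 147 to 229 CPM in female knockout chow, 114 to 480 in female wild type chow, 72.5 to 151 in male knockout chow and 74.2 to 158 in male wild type chow, and 5 of 11 had a lower diet effect in females than in males. Fibroblast markers summed to 1144 to 1443 CPM in female knockout chow, 1157 to 1804 in female wild type chow, 199 to 644 in male knockout chow and 613 to 1002 in male wild type chow, and 5 of 8 had a lower diet effect in females, as did 8 of 10 macrophage markers. Muscle fibre markers ran the other way, from 120218 to 124989 CPM in female knockout chow against 179557 to 224012 CPM in male knockout chow, and 6 of 9 tested had a higher diet effect in females. Of 10 endothelial markers 4 had a lower and 1 a higher diet effect in females, with a median of -0.28. Of 11 keratinocyte markers 2 had a lower one, and 0 of the brown adipocyte and sebocyte markers were called. Of all genes 23.6% had a lower diet effect in females and 21.6% a higher one. Within groups, Scd2 correlated at 0.64 with the Schwann cell markers and at 0.52 with the adipocyte markers. The part of Schwann cells, fibroblasts, macrophages, endothelial cells, keratinocytes and fibres in the results was not tested.

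With the mean log2 level of the adipocyte markers as a covariate in the fit, 3 of the 8 sex-by-diet calls were kept. These were Acaca at -1.45 (adjusted p = 0.00711), Mid1ip1 at -1.06 (adjusted p = 0.0101) and Fads1 (adjusted p = 0.00208). Fasn was at -1.69 (adjusted p = 0.119), Elovl6 at -1.70 (adjusted p = 0.0696), Scd1 at -0.99 (adjusted p = 0.179), Scd2 at -0.73 (adjusted p = 0.127) and Fads2 at -0.42 (adjusted p = 0.44), all in the same direction as before. In female wild types the diet calls of Fads1 (-0.65), Scd2 (-0.89), Acaca (-0.98) and Elovl6 (-1.56) were kept and that of Fads2 was not. In female knockouts the single call, Acaca, was lost (-0.77, adjusted p = 0.251), and in male knockouts that of Fads1 was kept (0.82, adjusted p = 0.0366). Of the 9 calls of the sex average 4 were kept, Elovl6 (1.59), Fads2 (0.74), Fads1 (0.54) and Srebf1 (-0.45), and 5 were lost, Fasn (1.00, adjusted p = 0.27), Acaca (0.49, adjusted p = 0.236), Scd1 (0.72, adjusted p = 0.224), Lpin1 (-0.32, adjusted p = 0.0563) and Mid1ip1. For sex in wild types on chow Fads1 (1.05), Acaca (1.26) and Elovl6 (2.26) were kept, and for sex in knockouts on chow none of the 8 was. Calls over all genes fell too, from 6340 to 3643 for sex by diet and from 4317 to 912 for the sex average. For sex in wild types on chow they fell from 1689 to 445. For diet they fell from 3558 to 3148 in female wild types, 2688 to 277 in female knockouts and 818 to 302 in male knockouts. They fell from 974 to 415 for knockout in male chow, and rose from 49 to 57 for diet in male wild types. The covariate differs most between female and male knockout chow, and there it lowered the calls over all genes to 259, against 5974 without it. Scd2 in that comparison turned to -0.25 (adjusted p = 0.826), against 0.84 without the covariate. Every Mid1ip1 call was kept apart from the sex average (-0.57, adjusted p = 0.0558), with 1.19 for knockout in male chow (adjusted p = 0.00926) and 1.45 for diet in male wild types (adjusted p = 0.00239).

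**Figure D4:**
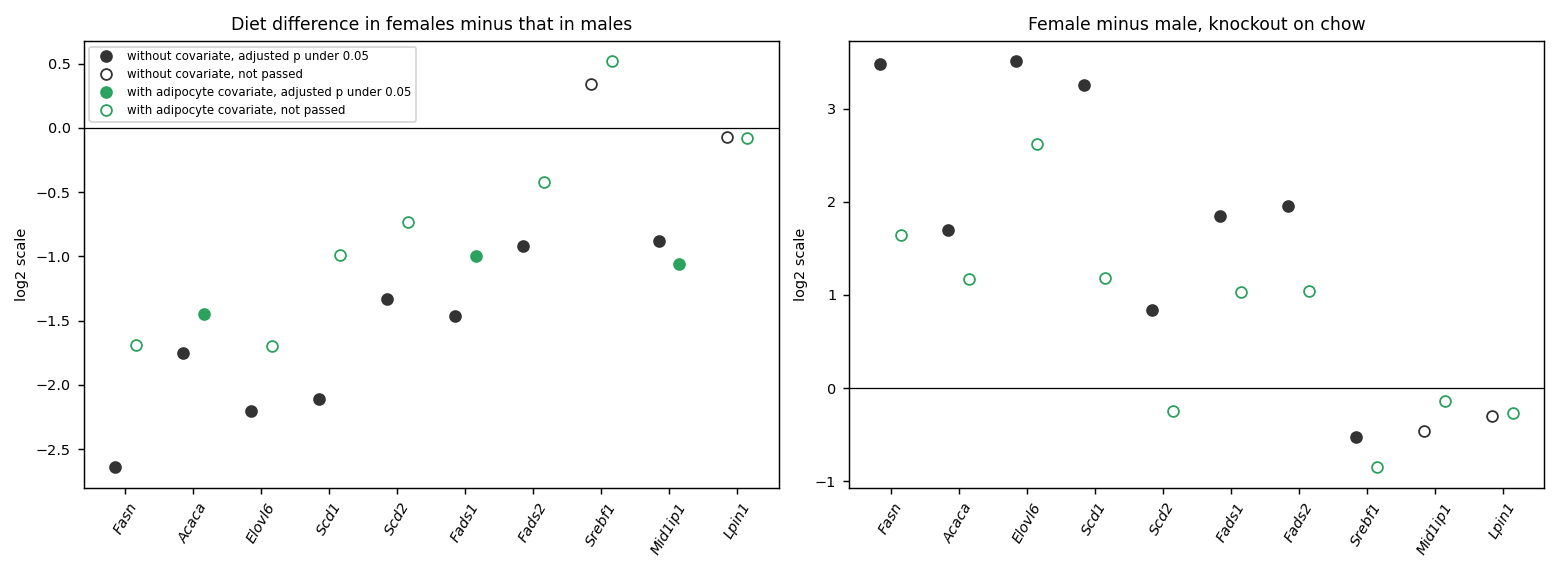
Estimates on the log2 scale (y axes) for the 10 genes (x axes), without (black) and with (green) the adipocyte marker level as a covariate; filled points have an adjusted p under 0.05. Left, the diet difference in females minus that in males, where Fads1, Acaca and Mid1ip1 stay filled; right, female minus male in knockouts on chow, where no green point is filled.

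Most pairs of the enzymes were correlated between animals of a group, to differing degrees. Within groups, after the group means were taken off, the Pearson correlation in log2 CPM over 30 libraries was 0.89 between Fasn and Acaca, 0.88 between Scd1 and Fasn, 0.83 between Scd1 and Scd2, 0.81 between Fasn and Elovl6 and 0.80 between Fads1 and Fads2. It was lower for other pairs, at 0.21 between Fads2 and Elovl6 (Spearman 0.15), 0.37 between Fads1 and Elovl6 and 0.45 between Fads1 and Acaca. Among the 12624 genes whose mean log2 CPM was 0 or more, the gene most like Fasn over all 30 libraries was Acly, which makes cytosolic acetyl-CoA from citrate (Pearson 0.95, Spearman 0.94), followed by Aacs and Tkt. Acly was also the most like Acaca (0.90) and Elovl6 (0.94). The genes most like Scd1 were H2-Q10 (0.92), Slc25a1, which carries citrate out of mitochondria (0.91), and the adipocyte gene Retn (0.91). Fads1 was most like Pygl (0.95), Fads2 most like Olfml2a (0.90) and Scd2 most like Reln (0.84). Mid1ip1 stood with other genes, Hk2, a hexokinase of muscle (0.85), and the clock genes Per2 (0.84) and Usp2 (0.82). Within groups the value for Hk2 was 0.30, that for Per2 0.58 and that for Usp2 0.32. Srebf1 was most like Vac14 (0.76) and Lpin1 most like Nedd4l (0.80).

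Related pathways moved in part with the 10 genes. Of 32 other lipid synthesis genes tested, 13 had a lower diet effect in females than in males and 5 a higher one, against 23.6% and 21.6% of all genes, with a median of -0.45 against -0.03 over all genes. Acly averaged 30.1 ± 11.5 CPM in female knockout high fat (SD, n = 3) and 46.9 ± 30.4 CPM in female knockout chow (SD, n = 4). It averaged 19.2 ± 3.66 CPM in female wild type high fat and 42.4 ± 14.0 CPM in female wild type chow (SD, n = 4 each). Its sex-by-diet difference was -1.36 ± 0.40 (adjusted p = 0.00864), and that of Slc25a1 was -1.07 ± 0.41 (adjusted p = 0.0379). Acly and Slc25a1 are named here for their likeness to members. The genes of smallest p in this list, Tecr, Mecr, Agpat3 and Me1, all had the opposite sign, a higher diet effect in females. Tecr, which completes each elongation cycle, was at 1.04 ± 0.12 (adjusted p = 5.61e-07). Me1, the cytosolic malic enzyme that supplies NADPH, was at 0.54 ± 0.11 (adjusted p = 2.72e-04).

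Of 21 sterol synthesis genes tested, 10 had a lower diet effect in females and 3 a higher one, beside the same shares of all genes, 23.6% and 21.6%, with a median of -0.44. They included Hsd17b7, an enzyme of cholesterol synthesis (-1.18 ± 0.18, adjusted p = 1.34e-05), and Stard4, a carrier of cholesterol within the cell (-1.42 ± 0.29, adjusted p = 2.55e-04). Of 21 regulators of lipogenesis, 3 had a lower and 5 a higher diet effect in females, with a median of 0.05. These counts are near those shares of all genes. Mlxipl, the carbohydrate response factor, was at 0.45 ± 0.11 (adjusted p = 0.00147) and Scap, which escorts the SREBP proteins, at 0.52 ± 0.11 (adjusted p = 6.61e-04). For the sex average, Srebf2, the relative of Srebf1 that drives sterol genes, was higher in females by 0.48 ± 0.08 (adjusted p = 3.62e-05), whereas Srebf1 was lower.

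Genes of fatty acid burning ran opposite to the synthesis genes. Of 20 PPAR target genes, 15 had a higher diet effect in females than in males, against 21.6% of all genes, with a median of 1.03. Acot2, a mitochondrial thioesterase, averaged 13.6 ± 0.900 CPM in female wild type high fat and 6.72 ± 1.53 CPM in female wild type chow, and 7.91 ± 1.83 CPM in male wild type high fat and 21.7 ± 1.85 CPM in male wild type chow (SD, n = 4 each). Its sex-by-diet difference was 2.16 ± 0.23 (adjusted p = 1.88e-07), and that of Pdk4, the kinase that shuts pyruvate dehydrogenase, was 3.28 ± 0.40 (adjusted p = 3.90e-06). On chow 13 of the 20 were lower in females in wild types, against 5.51% of all genes, and 12 in knockouts, against 19.1%.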

How the data were processed

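For each library the authors deposited unnormalized counts of reads for 39017 Ensembl gene identifiers, of which 37693 are in the GENCODE M21 annotation of mm10. Per the labels' protocols, polyA RNA with an integrity number above 8 went into a stranded mRNA kit and was sequenced in pairs on an Illumina HiSeq instrument. The submitters' processing notes name featureCounts, bcl2fastq and mm10. No aligner, annotation release or strand setting is given in the sources used here.

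Libraries were grouped by the title that carries the animal number of their file. This put 30 of 31 libraries in 8 groups, and 1 library, whose animal is in no title, was left out of every comparison. Over 42 pairs of libraries of 1 group, 0 pairs were identical and the lowest chi-square per gene was 4.67.

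Tests used edgeR 4.0.16 under R 4.3.3, its quasi-likelihood fit with TMM scaling, filterByExpr with a minimum count of 10 and robust dispersion, in 1 model with 1 coefficient per group. P-values of 18 contrasts were adjusted by Benjamini and Hochberg over 14024 genes within each contrast, at 0.05. Variation between animals, from the common dispersion, was 14.2%. Standard errors come from each fold change and the F statistic of its test. Levels are TMM-scaled CPM with the SD over libraries. CPM intervals and floors cover counting error only. The steps were tested on simulated data.

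Alternatives were DESeq2 1.42.0, RLE scaling, no filter, a fit of only the groups compared, libraries grouped by their own titles or only those whose titles match, leaving out libraries that stand apart or each library in turn, offsets for GC content, the replicate number as a block, and adipocyte marker level as a covariate. Same-numbered libraries of different groups did not deviate together (mean correlation 0.05 over 99 pairs, and -0.01 over 294 pairs of other numbers), so the numbers do not pair libraries.

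The members, the pathway lists, the marker lists and the tests were chosen with earlier results of these data known. All 10 members are named, with up to 4 genes of each list and the 3 genes whose log2 CPM correlates best with each member.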

Additional observations from a re-analysis of the deposited data

Results flagged for a closer look

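The diet difference in females minus that in males, tested in the 8-group fit, was negative for Fasn (-2.64), Elovl6 (-2.20), Scd1 (-2.11), Acaca (-1.75), Fads1 (-1.46), Scd2 (-1.33), Fads2 (-0.92) and Mid1ip1 (-0.88), all on the log2 scale. The adipocyte markers moved in the same comparison. With their mean log2 level as a covariate Fads1, Acaca and Mid1ip1 still passed, and Fasn, Elovl6, Scd1, Scd2 and Fads2 did not. The covariate lowered the calls over all genes in this comparison from 6340 to 3643.

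The knockout difference of Mid1ip1 on the high fat diet minus that on chow was -1.22. Of the 10 genes it alone passed that test with edgeR.

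The highest of 4 male wild type high fat libraries stood far from the others in Lpin1, at 369 CPM beside 259, 264 and 268 CPM. It was the 1 library so marked in 60 gene and group pairs of 4 libraries, where chance marks about 1 in 20.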

How the results depend on the processing

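Of 46 called differences of the 10 genes, 46 kept their call with DESeq2, 45 with RLE scaling, 43 without a filter, 43 with GC offsets, 44 without the libraries of intermediate Trim63, 36 without those high in Krt10, 41 in the 26 libraries with matching titles, 28 with 31 libraries grouped by their own titles and 22 with the adipocyte covariate. A fit of only the 2 groups compared kept 22 of 27. The replicate block kept 45 and the replicate block with GC offsets 42. Only Scd2 for sex in knockouts on chow turned its sign, to -0.25 with the adipocyte covariate.

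Counts of the 10 genes called moved as follows. For knockout, the average gave 0 in place of 1 with the 26 libraries and by own titles. Male chow gave 0 in place of 1 by own titles and 2 with the replicate block, with or without GC offsets, male high fat 1 in place of 0 with the 26 libraries, and female chow 1 in place of 0 with DESeq2 and in a fit of the groups compared. For diet, the average gave 1 in place of 0 with DESeq2. Male wild types gave 2 in place of 1 in a fit of the groups compared and 0 by own titles. Male knockouts gave 2 in place of 1 with DESeq2, in a fit of the groups compared and by own titles, and 3 with the 26 libraries. Female wild types gave 2 in place of 5 with the 26 libraries, 0 by own titles, 3 without high Krt10 and 2 with the replicate block and GC offsets. Female knockouts gave 3 in place of 1 with DESeq2, the 26 libraries, own titles, GC offsets and the replicate block with or without them, 2 in a fit of the groups compared and without intermediate Trim63, and 0 without high Krt10 and with the covariate. For sex, the average gave 4 in place of 9 with the covariate. Wild types on chow gave 2 in place of 7 by own titles, 4 without high Krt10 and 3 with the covariate, and wild types on high fat 0 in place of 1 by own titles. Knockouts on chow gave 0 in place of 8 with the covariate, and knockouts on high fat 1 in place of 2 in a fit of the groups compared and by own titles. Genotype by diet gave 0 in place of 1 without a filter, by own titles, without intermediate Trim63, without high Krt10 and with GC offsets. Sex by diet gave 3 in place of 8 with the covariate. Calls over all genes moved as well, for diet in female knockouts from 2688 to 106 without high Krt10 and to 277 with the covariate. The cause of these moves was not tested.

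Leaving out each library in turn gave counts from 1 to 3 for knockout in male chow, 0 to 1 in male high fat, 0 to 3 for diet in male knockouts, 2 to 5 in female wild types, 0 to 3 in female knockouts, 4 to 7 for sex in wild types on chow, 6 to 9 in knockouts on chow, 1 to 2 in knockouts on high fat, 0 to 1 for genotype by diet and 7 to 8 for sex by diet. The lowest diet count in female wild types came without chow 3 or high fat 3.

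Over all genes, GC offsets moved the share of called genes that were higher from 35.4% to 55.6% for the knockout average, from 23.5% to 48.4% in male chow, from 68.7% to 46.8% for diet in male knockouts and from 55.1% to 43.5% for sex in knockouts on chow. They gave 54.5% in place of 40.5% for knockout in male high fat, 36.8% in place of 23.1% in female chow, 66.7% in place of 87.9% for the diet average, 75% in place of 46.7% for genotype by diet and 61.5% in place of 50% for genotype by sex. DESeq2 gave 69.5% in place of 87.9% for the diet average, 34.4% in place of 23.1% for knockout in female chow, 31.6% in place of 0% in female high fat and 75.3% in place of 50% for genotype by sex. The covariate gave 45.0% in place of 56.4% for the sex average and 36.4% in place of 23.1% for knockout in female chow. Groups of 3 or 4 animals, and counts as low as 2 for Fads2 and 4 for Elovl6, limit the precision.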

Other observations

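The library left out of every comparison, whose animal number is in no title, had 107 CPM of Trim63 and 51.7 CPM of the Y-linked gene Ddx3y, in counts over its own total. Its own title names a male knockout on high fat, whereas the 14 knockout libraries had at most 6.24 CPM of Trim63. It had 122 CPM of Scd1, 32.4 of Fasn, 25.8 of Acaca, 1.81 of Elovl6, 51.2 of Scd2, 7.63 of Fads1, 1.81 of Fads2, 80.9 of Srebf1, 17.6 of Mid1ip1 and 398 CPM of Lpin1. Ddx3y ran from 0 to 0.757 CPM in the 15 female libraries and from 30.3 to 55.8 CPM in the 15 male libraries.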
